A study of Schizosaccharomyces pombe with 28 samples.

Results

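Long IGR features are spots of a fission yeast (Schizosaccharomyces pombe) DNA array whose names mark them as lying in a long intergenic region (IGR), next to the gene they are named for. They were picked by that name alone, and 165 of the 4963 IGR features kept for analysis met the rule. The array held 5171 IGR features, of which 208 were marked as missing and left out, 11 of the 176 long ones among them. The remaining 4798 kept features are called other IGR features here.

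The study compared chromatin of swm1Δ cells, which lack Swm1, a fission yeast relative of the human histone demethylase LSD1, with chromatin of wild-type cells. Chromatin was immunoprecipitated with antibodies against histone H3 dimethylated at lysine 4 (H3K4me2) or at lysine 9 (H3K9me2), and DNA from swm1Δ cells and from wild-type cells was hybridised together on 2 dye-swapped arrays per mark. Binding of the chromatin remodelling ATPases Hrp1 and Hrp3 was measured in cells with myc-tagged protein, as immunoprecipitate against input on 3 arrays each. A further 3 records are labelled as histone H3 immunoprecipitated from hrp1Δ cells. No growth condition or treatment is given in the labels, and whether the 3 Hrp arrays came from separate cultures is not given in the sources used here.

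In fission yeast, the space between genes holds the promoters of RNA polymerase II. H3K4 methylation is laid down by the Set1 complex around transcribed genes and their starts, whereas H3K9 methylation marks the silent heterochromatin of centromeres, telomeres and the mating-type locus. Hrp1 and Hrp3 are CHD-type remodellers, which move and space nucleosomes.

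The names held 115 systematic gene names, of which 53 lie on chromosome I, 39 on chromosome II and 23 on chromosome III by their prefix. The other names were gene symbols such as pma1, and 1 feature was called longIGR with no gene. The genes of 154 features were matched to the RefSeq table of the ASM294v3 assembly, 14 of them by an older symbol, and 11 features had no match. RefSeq symbols are given in brackets after systematic names. The files give neither position nor sequence of a spot, so none is printed here.

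The label was checked against the genes' surroundings in RefSeq. The distance from the start codon of the named gene to the nearest coding sequence upstream had a median of 3170 bp (quartiles 1249 and 3963 bp) for the 154 matched long IGR features. For 4219 other IGR features with a matched gene the median was 880 bp (quartiles 526 and 1401 bp). The distance was over 1000 bp for 127 long IGR features (82.5%) and for 1790 other IGR features (42.4%). The widest was that of zfs1, at 9848 bp, and 27 named genes had 1000 bp or less. The length at which the array design called a region long is not given in the sources used here.

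H3K4me2 was higher in swm1Δ cells at the long IGR features than at the other IGR features on both arrays. Values are log2 ratios of swm1Δ over wild type, where 0 is no difference. The long IGR features had a median of 0.58 on array 1 (quartiles 0.08 and 1.16) and 0.84 on array 2 (quartiles 0.28 and 1.48). The other IGR features had medians of 0.00 and -0.01, with quartiles of -0.30 and 0.30 on array 1 and -0.30 and 0.27 on array 2. The median long IGR feature thus lay above the upper quartile of the others on both arrays. The difference of medians was 0.72 ± 0.20 (SD, n = 2 arrays), with the same sign on both arrays. An exact two-sided sign-flip permutation test over the arrays gave p = 0.5, the smallest that 2 arrays allow.

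**Figure D1:**
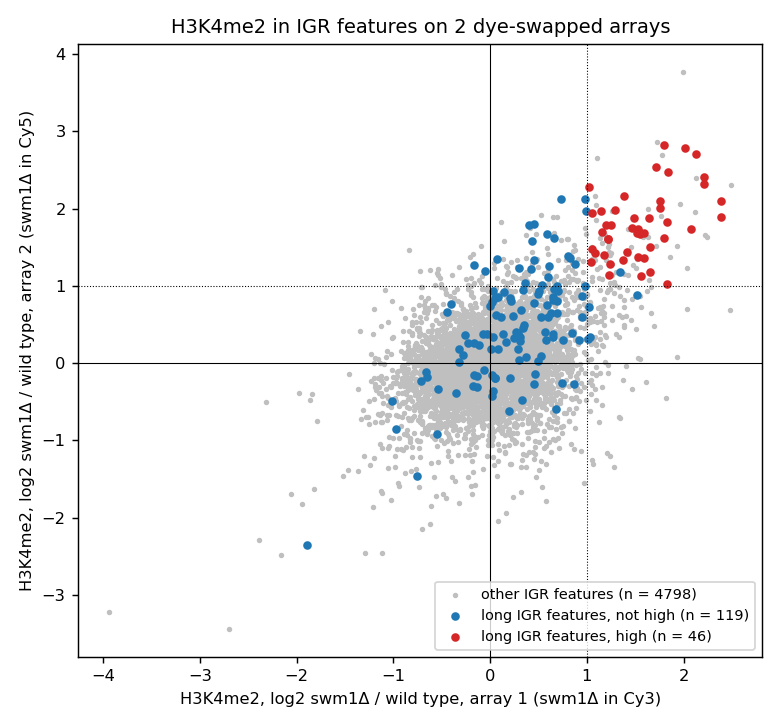
H3K4me2 of each IGR feature on array 1 (x axis) and array 2 (y axis), as log2 ratios of swm1Δ over wild type, with other IGR features in grey, long IGR features in blue and high long IGR features in red. Dotted lines mark a ratio of 2.0. The long IGR features lie mostly in the upper right, where 124 of 165 are above 0 on both arrays.

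The pattern was seen in many of the features and not in a few. Of the 165, 124 were above 0 on both arrays, where 30.3% of all IGR features were, and 15 were below 0 on both, where 29.4% of all were. A feature was called high when the ratio was at least 2.0 in each of its 3 data points, 1 spot on array 1 and 2 spots on array 2. By that rule 46 long IGR features (27.9%) were high, against 1.95% of all IGR features and 1.06% of the other IGR features. They made up 46 of the 97 high IGR features, or 47.4%. Only 1 long IGR feature was low, with a ratio of at most 1/2.0 in the 3 data points, against 0.463% of all. The limma test of the array means, with Benjamini-Hochberg adjustment over all IGR features at 0.05, called 62 long IGR features higher (4.03% of all features were) and 3 lower (1.51% of all). All 46 high features were among the 62. Of the 100 IGR features with the highest mean, 47 were long IGR features.

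The 2 arrays correlated more closely over the long IGR features than over IGR features as a whole. Pearson's r between the arrays was 0.79 over the 165 and 0.43 over all 4963 features, which share the hybridisation of each slide. These are correlations across features, which are not independent replicates.

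Named genes are described by their roles, in lists chosen with earlier results of these data known. The mating and meiosis list held 6 long IGR features, of which 4 were high and called higher by limma, with a median of 1.27. At puc1, which codes for a cyclin with a role in the exit to meiosis, the log2 ratio was 2.22 on array 1 and 2.33 on array 2. At mei2, the RNA-binding protein that switches cells into meiosis, it was 2.08 and 1.74. For both genes, the values of the 2 arrays lay far closer to each other than to 0. At isp7, an oxygenase gene expressed in sexual development, the values were 1.37 and 1.33. At ste7, an arrestin-like protein of mating and meiosis, they were 1.23 and 1.15. The adjusted p from limma was 2.58e-05 for puc1, 0.000132 for mei2, 0.00263 for isp7 and 0.00743 for ste7. The remaining 2 did not pass, with 0.06 and 0.62 at matmc, in the mating-type region, and 0.13 and 0.37 at isp4, an oligopeptide transporter gene. A further long IGR feature, named matmc-x2 and not counted on the list, had a mean of 0.19.

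The stress list held 3 features, of which 2 rose. At ctt1, the gene of the catalase that breaks down hydrogen peroxide, the ratio was 2.38 and 2.10, and at zfs1, a zinc finger protein that binds mRNA, it was 1.71 and 2.54. Both lay above 1.7 on each array, and limma gave adjusted p = 2.58e-05 for ctt1 and 7.73e-05 for zfs1. At fbp1, the gluconeogenic fructose-1,6-bisphosphatase whose gene is repressed by glucose, the values were 0.69 and 0.81 (limma adjusted p = 0.107). The only member of the nutrient sensing list was gpa2, the Gα subunit of the glucose and cAMP pathway, at 1.56 and 1.13 (limma adjusted p = 0.00314).

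Genes of the plasma membrane followed. At pma1, the proton pump that energises nutrient uptake, the ratio was 1.80 on array 1 and 2.83 on array 2, and at ptr2, a peptide transporter, it was 1.64 and 1.88. Limma called both higher, with adjusted p = 5.57e-05 and 0.000276. At ght6, a hexose transporter, the values were 0.60 and 1.11, and at fio1, the copper oxidase of iron uptake, 0.66 and 0.96, which did not pass (limma adjusted p = 0.0665 and 0.0818). All 4 members of this list were above 0 on both arrays.

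The cell wall list held 5 features, of which 4 were high, though whether cps1 and agl belong to the wall is not settled here. At cps1 the ratio was 2.21 and 2.41. This symbol is the current name of a carboxypeptidase gene and an older name of a glucan synthase gene, and which of them the spot stands for was not settled. At bgs4, a β-1,3-glucan synthase subunit, it was 1.38 and 2.16. At agl (agl1), an α-glucosidase, it was 1.54 and 1.70, and at mok13, an α-1,3-glucan synthase, 1.18 and 1.40. These 4 lay above 1 on both arrays, as the rule for high features requires. SPAC19B12.02c (gas1), a glucanosyltransferase, had 0.25 and 0.33 and did not pass (limma adjusted p = 0.681). Of the cell division list, fin1, a NIMA-like kinase, was high with 1.80 and 1.62, while klp1 had 0.45 and 0.78 (limma adjusted p = 0.226). The symbol klp1 was matched as an older name of pkl1, a kinesin-14 motor. The array also holds a separate IGR feature named pkl1, so this match is not settled.

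The highest mean of all long IGR features was at SPAC2C4.17c (msy2), a mechanosensitive ion channel, with 2.12 on array 1 and 2.70 on array 2. At SPCC1020.10 (oca2), a serine/threonine kinase, the values were 2.01 and 2.78. Limma gave both an adjusted p of 2.58e-05, the smallest among the long IGR features. At SPBC354.09c (tre1), a protease related to transferrin receptors, they were 1.84 and 2.48, and at SPAC6C3.01c (msa1), an RNA-binding protein, 2.39 and 1.90. The feature without a gene name had 1.76 and 2.09. Each of these was past a ratio of 2.0 in every spot, as the rule for high features requires. The other 10 of the 25 strongest had means between 1.60 and 1.88. They were named for csx2 (cnt5, a centaurin), SPAC9E9.09c (atd1, an aldehyde dehydrogenase), SPAC977.17 (a membrane channel of the MIP superfamily), SPAC17G6.02c (tco1, RTA1-like), SPAC31G5.20c (ptl2, a triacylglycerol lipase), SPCC188.09c (pfl4, a flocculin), SPBP23A10.11c (a β-1,3-glucanase), SPBC3H7.02 (sul1, a sulfate transporter), SPCC70.04c and SPAC6F6.13c. Among these 10 the arrays lay furthest apart at SPAC17G6.02c, with 1.03 and 2.27. For all 25 the limma adjusted p was at most 0.00174.

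**Figure D2:**
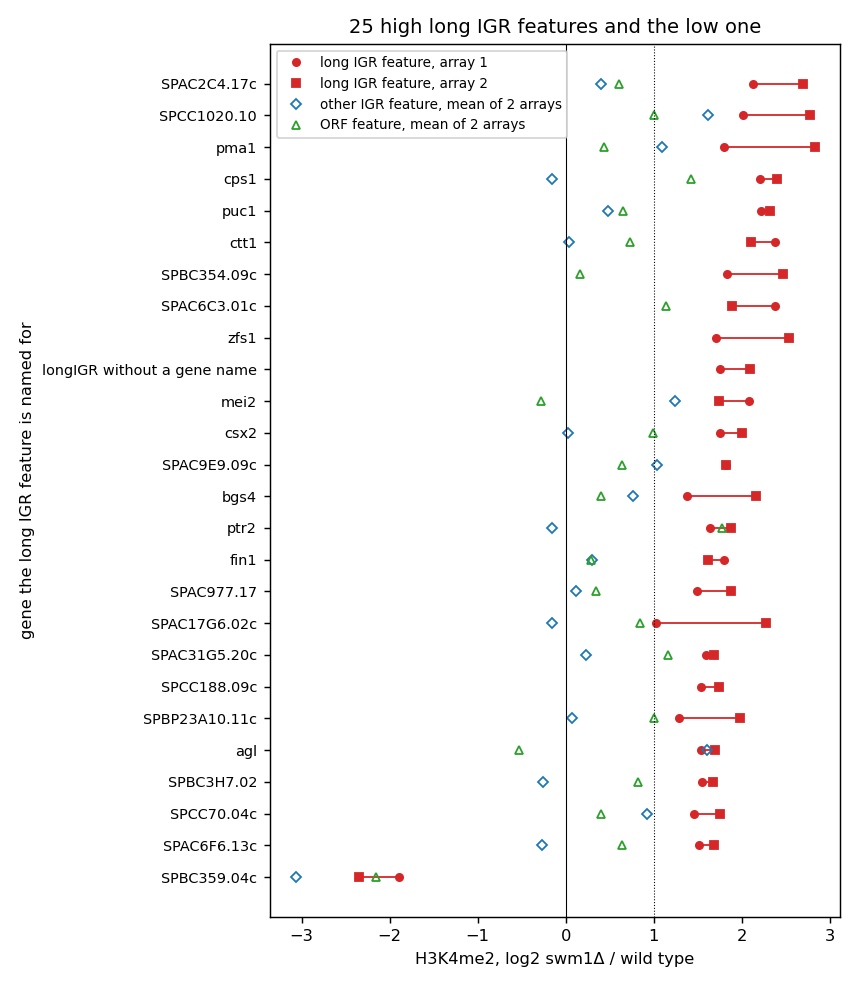
H3K4me2 (x axis, log2 ratio of swm1Δ over wild type) at the 25 high long IGR features with the largest means and at the low one (y axis). Red circles and squares are arrays 1 and 2, blue diamonds the other IGR feature and green triangles the ORF feature of the same gene, each as the mean of 2 arrays, where there is one. The dotted line marks a ratio of 2.0, which both arrays pass at all 25 by the rule for high features. The 25 run from SPAC2C4.17c (mean 2.41) to SPAC6F6.13c (mean 1.60).

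One long IGR feature went strongly the other way. At SPBC359.04c (pfl7), a cell surface glycoprotein of the DIPSY family, the log2 ratio was -1.89 on array 1 and -2.35 on array 2 (limma adjusted p = 5.60e-05). The other IGR feature of this gene had a mean of -3.07 and its ORF feature -2.15, so H3K4me2 was lower on all 3 of its features. Limma also called SPAC22A12.17c, a dehydrogenase gene, lower with -0.75 and -1.46, and SPAC2E1P3.05c (cbm1) with -0.97 and -0.85. The adjusted p was 0.0168 and 0.0424 from limma.

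Ribosomal protein genes stood near 0. The 7 long IGR features named for them had means from -0.47 to 0.35 with a median of 0.05, and 0 were high or called by limma. By the words of their RefSeq products, and so chosen after the values were seen, 21 features were named for transporters, of which 6 were high (median 0.70). Of 14 named for uncharacterized proteins 4 were high (median 0.48). Both shares are close to the 27.9% of all long IGR features. Of 5 named for serine/threonine kinases 3 were high (median 1.56). All 3 named for transcription factors, SPCC320.03, SPBC530.11c and SPBC317.01 (mbx2), were called higher by limma, with means of 1.26, 1.09 and 0.91. The 44 features with a numbered name had a median of 0.63 with 14 high, and the 121 with a plain name 0.67 with 32 high. These shares also lay near 27.9%.

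Many of the genes had a second, ordinary IGR feature, which allowed a comparison within a gene. Of the 149 long IGR features with such a partner, 96 were above it on both arrays and 13 below it on both. The long IGR features of these genes had medians of 0.50 and 0.78 on the 2 arrays, and their partners 0.06 and 0.01. The median difference within a gene was 0.56 on array 1 and 0.61 on array 2. Of the 38 high long IGR features with a partner, 4 had a partner that was high as well, and 2 partners were high where the long IGR feature was not. At ctt1 the partner had 0.66 and -0.58, against 2.38 and 2.10 at the long IGR feature. At mei2 the partner had 1.30 and 1.18, and at agl 1.58 and 1.63. The partner at ctt1 thus stayed near 0 on average, while those at mei2 and agl were raised on both arrays.

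The open reading frames (ORFs) of the same genes were measured on the same slides. Over 156 genes, Spearman's rho between the long IGR and the ORF feature was 0.65, and over the 149 genes with a partner it was 0.40 between the long IGR feature and the partner. Both describe features that share a hybridisation. At the 42 genes with a high long IGR feature and an ORF feature, the median ORF log2 ratio was 0.64, and 36 of the ORFs were above 0. At the genes without a high long IGR feature it was -0.12. At ptr2 the ORF had 1.86 and 1.69, close to its long IGR feature, while at mei2 it had -0.11 and -0.45.

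**Figure D3:**
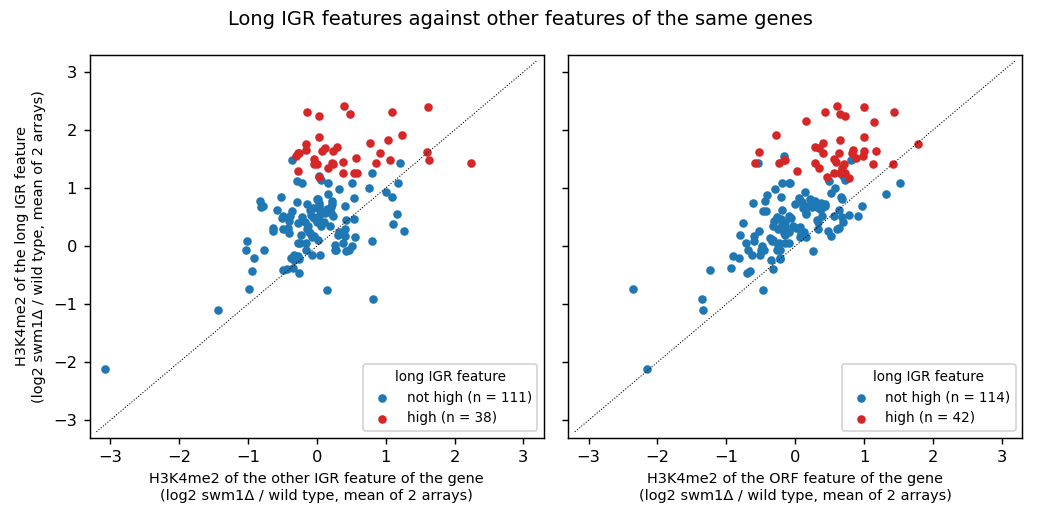
H3K4me2 of the long IGR feature (y axis) against the other IGR feature (left, x axis, 149 genes) and the ORF feature (right, x axis, 156 genes) of the same gene, as log2 ratios of swm1Δ over wild type, mean of 2 arrays. Red points are the high long IGR features and the dotted line marks equal values. Most points lie above the line on the left, where 96 of 149 long IGR features exceed their partner on both arrays.

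The length of the region was set beside the mark. Across the 154 matched long IGR features, Spearman's rho between H3K4me2 and the upstream distance was 0.17, and across the 4219 other IGR features it was -0.10. Other IGR features with a distance over 1000 bp had a median log2 ratio of -0.06, and those at or below it 0.01. The long IGR features had a median of 0.71 above that distance and 0.44 at or below it. Few of the other IGR features reached the distances of the long ones. The 157 that were at or above the median of the long IGR features, 3170 bp, had a median log2 ratio of 0.06. The distance is that of the named gene, so a partner of a long IGR feature has the same distance. Such partners were not left out of the 157, which are thus not a separate set of regions. The part of region length in the raised values was not tested.

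Position on the array and brightness also set the long IGR features apart. All 165 lay in the last 2 print rows of 42 print blocks. The 693 other IGR features in those rows had medians of 0.01 and -0.04 on the 2 arrays, and 5 of them were high. The long IGR features were brighter than the others. On the H3K4me2 arrays their median signal was 2.39 times that of the other IGR features in the swm1Δ dye of array 1 and 2.50 times in that of array 2, and 1.38 and 1.41 times in the wild-type dye. The larger ratio went with swm1Δ in Cy3 on array 1 and in Cy5 on array 2. On the other arrays with scanner files the ratio was 1.69 to 2.72 in either dye. Spearman's rho between H3K4me2 and the rank of the summed signal was -0.15 among the long IGR features.

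**Figure D4:**
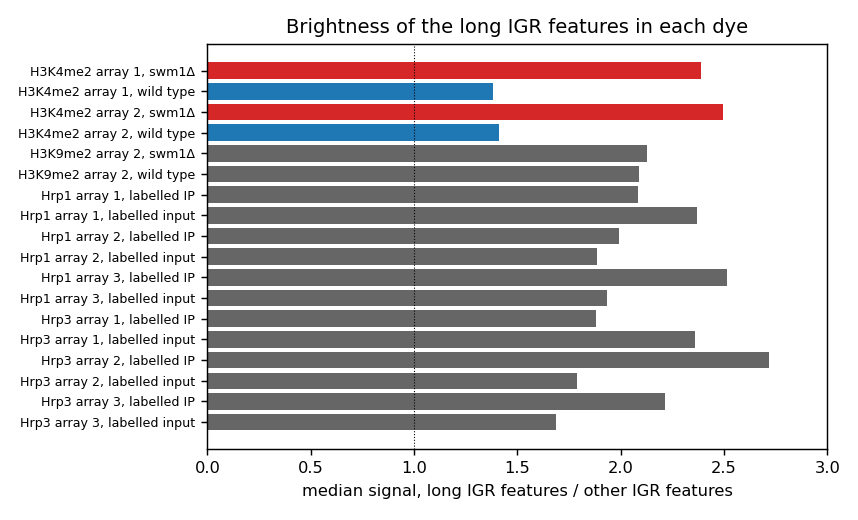
Median background-subtracted signal of the long IGR features over that of the other IGR features (x axis, ratio) in each dye of each array with a scanner file (y axis), with swm1Δ in red and wild type in blue on the H3K4me2 arrays. Bars start at 0 and the dotted line marks equal brightness. The swm1Δ bars reach 2.39 and 2.50 and the wild-type bars 1.38 and 1.41.

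For H3K9me2 the long IGR features lay close to the other IGR features. Their median log2 ratio was 0.53 on array 1 and 0.06 on array 2, against 0.46 and -0.07 for the other IGR features. The difference of medians was 0.09 ± 0.05 (SD, n = 2 arrays), and the exact two-sided sign-flip permutation test gave p = 0.5, the smallest possible. By the 2.0 cut-off, which here had to be passed in 3 or more of 4 data points, 10 long IGR features (6.06%) were high, against 4.77% of all, and 3 were low, against 2.65% of all. Limma called 0 higher (0% of all) and 0 lower (0% of all). At an unadjusted p under 0.05 it had 262 of 4901 features, 12 of them long, and the smallest adjusted p was 0.253. The arrays correlated with r = 0.01 over all features and 0.17 over the long ones, and array 1 had a median of 0.47 over all IGR features, so its ratios were not centred. Without array 2, 52 long IGR features were high, and 22.3% of all IGR features.

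In 7 of the 162 long IGR features with all 4 data points, the H3K9me2 ratio was at least 2.0 in each, as it was in 2.68% of all IGR features with 4 values. At klp1 the log2 ratio was 1.79 on array 1 and 2.46 on array 2. At SPCC1281.06c (ole1), the fatty acid desaturase, it was 1.94 and 1.65. At SPBC1271.09 (tgp1), a transporter of glycerophosphodiesters, it was 1.76 and 1.49. These 3 passed a ratio of 2.0 on both arrays, as the rule by which they were picked requires. SPCC18B5.02c had 1.90 and 1.41, and SPBC2F12.12c (cay1, a cactin) 1.41 and 1.48. At fio1 and SPAC1F8.08 the first array gave 6.34 and 6.21, and the second 1.23 and 1.96, so the arrays differed by several log2 units. SPAC27E2.04c (mug155) was low in all 4, with -1.08 and -1.12, as were 1.15% of all. None of these passed limma (smallest adjusted p among the long IGR features 0.555). Of the 46 long IGR features high in H3K4me2, 3 (6.52%) were high in H3K9me2, close to the 6.06% of all long IGR features. Among all 97 IGR features high in H3K4me2, 5 (5.15%) were high in H3K9me2.

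**Figure D5:**
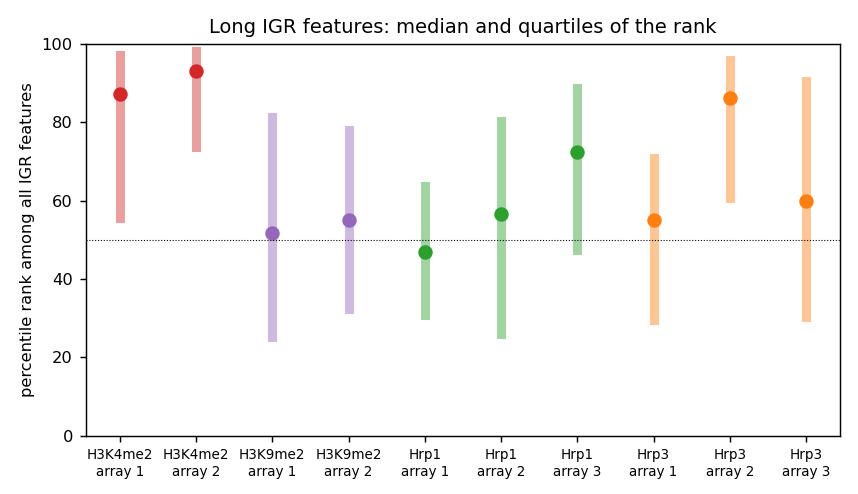
Percentile rank of the 165 long IGR features among all IGR features (y axis) on each array of 4 measurements (x axis). Points are medians and bars reach from the lower to the upper quartile, with the dotted line at 50. On the H3K4me2 arrays the medians are 87.3 and 93.2, on the H3K9me2 arrays 51.7 and 55.2.

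Hrp1 and Hrp3 were read as percentile ranks of the immunoprecipitate over input among all IGR features, with no loess. The median rank of the long IGR features for Hrp1 was 46.8, 56.6 and 72.3 on arrays 1 to 3. The difference from the other IGR features was 8.86 ± 13.3 percentile points (SD, n = 3 arrays), with values of -3.33, 6.82 and 23.1 (exact two-sided sign-flip permutation test p = 0.5, smallest possible 0.25). This difference was thus not larger than its spread between arrays. Array 3, which had the largest value, was deposited on another array platform and under another title code than arrays 1 and 2. Without array 3 the difference was 1.74. Counted as bound at a median rank of at least 90, 17 long IGR features (10.3%) met the threshold, against 4.74% of all. Limma on the median-centred log2 ratios called 0 higher (0% of all) and 0 lower (0% of all), with 269 of 4963 features, 18 of them long, at an unadjusted p under 0.05.

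The Hrp1 arrays did not rank features alike. Arrays 2 and 3 correlated with r = 0.60 over all IGR features, whereas array 1 had r = -0.17 and -0.22 with them. The deposited values of array 1 follow the dye labelled as input (rho 0.983). The values of arrays 1 to 3 were also deposited under an H3 label, as given below. For array 1 that record names the immunoprecipitate in the second dye channel, for arrays 2 and 3 in the first. The direction of array 1 is thus not settled. With that array turned the difference was 11.1 and 14 long IGR features were bound (5.84% of all). Without array 2 the number bound was 6 (1.07% of all) and without array 3 it was 4 (1.31% of all).

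The highest median rank for Hrp1 was at SPCC1281.06c (ole1), with 39.98, 99.6 and 99.6 on arrays 1 to 3. SPAC26H5.09c, an oxidoreductase gene, had 99.7, 80.4 and 99.5, and with array 1 turned its median rank was 80.4, under the threshold. The glycolytic genes pgk1, for phosphoglycerate kinase, and pfk1, for phosphofructokinase, had 72.0, 99.3 and 99.8, and 75.8, 98.1 and 99.2. At zfs1 the ranks were 36.5, 98.9 and 99.4. Array 1 was the low one at 4 of these 5. The lowest were SPBC3B8.08, with 69.4, 0.06 and 2.01, wtf6, with 18.0, 0.30 and 6.21, and SPBPB2B2.14c, with 6.75, 5.16 and 41.1. With array 1 turned, the median rank of SPBPB2B2.14c was 41.1, while SPBC3B8.08 and wtf6 kept 2.01 and 6.21.

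For Hrp3 the median rank of the long IGR features was 55.0, 86.1 and 59.9 on arrays 1 to 3. The difference from the other IGR features was 17.6 ± 17.2 percentile points (SD, n = 3 arrays), positive on all 3 arrays with 5.23, 37.2 and 10.2. The exact two-sided sign-flip permutation test gave p = 0.25, the smallest that 3 arrays allow. At a median rank of at least 94, 27 long IGR features (16.4%) were counted as bound, against 3.49% of all. Limma called 0 higher (0% of all) and 0 lower (0% of all), with 103 of 4963 features, 11 of them long, at an unadjusted p under 0.05. Array 1 had r = -0.06 and -0.26 with arrays 2 and 3, which correlated with 0.74. The deposited values of array 1 follow the dye labelled as input (rho 0.987), and with array 1 turned the difference was 14.1, no longer of 1 sign. Without array 2 or without array 3 the number bound was 3, of 7 (0.141%) among all IGR features.

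The highest median rank for Hrp3 was at ctt1, with 80.4, 99.98 and 99.98. SPAC1A6.04c (plb1), a phospholipase, had 28.6 and 99.96 on arrays 1 and 2 and the top rank on array 3. SPCC1281.06c (ole1) had 34.7 and 99.92 on arrays 1 and 3 and the top rank on array 2. At pma1 the ranks were 18.4, 99.88 and 99.86, and at SPCC553.10 (knh3) 16.4, 99.90 and 99.84. All 5 stood near the top on arrays 2 and 3, and 4 of them below 50 on array 1. Of the 17 long IGR features bound by Hrp1, 12 (70.6%) were among the 27 bound by Hrp3, of which they made up 44.4%. Over all IGR features the 68 bound by both were 28.9% of those bound by Hrp1 and 39.3% of those bound by Hrp3. With array 1 of each protein turned, 11 long IGR features were bound by both, or 78.6% of 14 and 40.7% of 27. Of the 46 long IGR features high in H3K4me2, 7 (15.2%) were bound by Hrp1, where 10.3% of all long IGR features were, or 6 (13.0%, against 8.48%) with array 1 turned. By Hrp3 12 of the 46 (26.1%) were bound, where 16.4% of all long IGR features were, with array 1 read either way. Over all 97 IGR features high in H3K4me2, which include the 46, 11 (11.3%) were bound by Hrp1, 7 of them long. By Hrp3 13 (13.4%) were bound, 12 of them long. These overlaps were not tested. The long IGR features of pma1, ctt1 and zfs1 were high in H3K4me2 and bound by both.

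Histone H3 could not be compared. The deposited H3 values of hrp1Δ cells cover 4637 IGR features, and 0 of the 165 long ones had a value. These H3 values were also not separate from the Hrp1 values. On each of the 3 arrays over 99.9% of 9270 shared spots equalled the deposited Hrp1-myc value of 1 array, after conversion from log10 to log2, within 0.01. The same values thus stand under an Hrp1-myc label and an H3 label, and which is right is not settled here. The doubt extends to the Hrp1 results above, since the deposited values follow 1 dye of each Hrp1 scanner file (rho 0.983 to 0.9996).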

How the data were processed

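The authors deposited scanner files that list, per spot and dye (Cy3, Cy5), a median signal intensity and a local background intensity, log2 ratios after Lowess normalization in GeneSpring for the methylation arrays, and log10 values for the Hrp arrays. For histone H3 the authors deposited log2 values only. Each feature has 2 spots. The genome build is not given in the sources used here.

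H3K4me2 intensities were background corrected with normexp in limma 3.58.1 (R 4.3.3, with 50 as offset), then loess normalized per scanner file, and turned by the dye labels, for array 1 from 1 spot per feature. In the fit, missing and control spots had weight 0. H3K9me2 used the deposited log2 ratios, since array 1 has no scanner file here. Hrp signals were centred on each array's median. The methods' cut-off of 2.0 in at least 3 data points and the median percentile ranks of 90 and 94 were applied to all IGR features. Limma tested array means against 0, with Benjamini-Hochberg adjustment over all IGR features and 1 residual degree of freedom for 2 arrays, 2 for 3 arrays. The test was first tried on simulated data. Differences of medians were tested over arrays, since features are not replicates. The methylation arrays came from 2 independent ChIP samples, and the p-values rest on no other replication. Limma also drew the variance of each feature towards that shared by all IGR features. For H3K4me2 its standard error was 0.255 at cps1 and 0.282 at pma1, where the SD between arrays was 0.135 and 0.730. A small limma p-value is thus not a measure of how closely the arrays of that gene agreed. The number of arrays limits the precision.

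Named genes were, for H3K4me2, up to 25 high and all low members past the cut-off in every data point. For H3K9me2 they were up to 10 such members, for each Hrp protein the 5 highest ranks and for Hrp1 the 3 lowest, and in addition all genes on the lists. The members and lists were chosen with earlier results of these data known. Gene names, products and distances between coding sequences came from RefSeq (ASM294v3), a later annotation than that of the array. Tables used Python 3.11.15, numpy 2.4.6, pandas 2.3.3 and matplotlib 3.10.9. The alternatives tried concerned cut-offs, background, normalization, dim spots, deposited values, dye labels and single arrays.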

Additional observations from a re-analysis of the deposited data

How the results depend on the processing

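The H3K4me2 difference of 0.72 kept its sign under every alternative run, from 0.58 to 0.85 with either array left out, and was 0.72 against the same print rows and 0.61 within the same genes, both chosen after seeing the data. Without array 1, 63 long IGR features were high, where 3.83% of all were, and without array 2 it was 51, where 4.17% of all were. The alternatives on background, normalization, dim spots, deposited ratios and the mean of the data points gave 38 to 61 (1.43% to 3.59% of all). There were 70 at a cut-off of 1.5, where 4.96% of all IGR features were. Limma called 47 to 62 long IGR features higher, where 2.06% to 4.07% of all were. For H3K9me2, 29 were high at a cut-off of 1.5 (12.6% of all) and 24 by the mean of the data points (11.8% of all). With either array left out it was 13 to 52 (9.82% to 22.3% of all). The difference was 0.06 to 0.12 with either array left out and 0.05 with the scanner intensities of array 2. For Hrp1, 8 were bound by the mean rank (0.786% of all) and 62 by the deposited values, where 8.85% of all were. Without array 1 it was 19 (5.82% of all), without array 2 it was 6 (1.07%) and without array 3 it was 4 (1.31%). The Hrp1 difference was 36.7 by the deposited values and 1.74 to 15.0 with 1 array left out. For Hrp3, 3 were bound by the mean rank (0.121% of all) and 3 to 36 with 1 array left out (0.141% to 4.82% of all). The difference was 7.73 to 23.7 with 1 array left out, 32.3 by the deposited values and 10.7 with normexp. The deposited Hrp values follow the signal of 1 dye on each array (rho at least 0.983). Their ranks are thus ranks of signal in that dye, not of immunoprecipitate over input, and give no second reading of binding. The cause of the moves was not tested, except that a lower cut-off passes more features by construction. The alternatives for histone H3 gave no value, since no long IGR feature was measured there. No paired analysis was possible because each ratio already pairs its samples within an array, so that the tests against 0 are paired by construction and no replicate block was left to add.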

Other observations

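In 5 cases both features named for neighbouring genes were long IGR features, and their H3K4me2 values could differ widely. SPBC359.03c had a log2 ratio of 0.46 and -0.27 on the 2 arrays next to SPBC359.04c (pfl7) with -1.89 and -2.35. SPAC23D3.11 had -0.32 and 0.18, and its neighbour SPAC23D3.12 (pho842), an inorganic phosphate transporter, 0.66 and 1.61. At rps18-1 the values were 0.08 and 0.18 beside 0.95 and 0.87 at SPBC317.01 (mbx2). The microtubule gene dis1, at 1.05 and 1.94, and SPCC736.15 (pil1), of the eisosome, at 0.44 and 1.58, were both called higher by limma. At pho1, an acid phosphatase, the values were 0.65 and 0.85 (limma adjusted p = 0.109), and at its neighbour SPBP4G3.03, which was called higher, 1.08 and 1.43.

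Of 19 long IGR features named for genes within 50 genes of an end of chromosome I or II, 3 were high in H3K4me2, 5 were called higher and 1 lower by limma, and the median log2 ratio was 0.49. Over all long IGR features 27.9% were high, 37.6% were called higher and 1.82% lower, and the median was 0.66. The group of 19 was chosen after the values were seen, as were the 3 features named for wtf genes. Of these 3, 0 were high and wtf6 was called higher by limma at 0.98 and 2.12.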
